A study of Mus musculus with 2 samples.

Results

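The cytosolic ribosomal proteins are the protein parts of the ribosome that works in the cytoplasm. They were compared here between tumours of mice kept in an enriched environment and tumours of mice kept in standard cages. Members were all genes whose name on the array is Rpl or Rps followed by a number, with Rplp0, Rplp1, Rplp2 and Rpsa, and without the Rps6k kinases. The rule found 82 of 27962 gene names, and all 82 were measured on both arrays. They comprised 45 core proteins of the large subunit, 31 core proteins of the small subunit, 5 paralogues and 1 gene that only shares the naming pattern, Rps19bp1, which encodes an RPS19-binding protein and no ribosome subunit.

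Both groups were C57BL/6 mice that entered their housing at 3 weeks of age. They carried subcutaneous tumours grown from Panc02, a single mouse pancreatic cancer line, for 5 weeks. Tumour RNA was joined into 2 pools, here called the standard and the enriched pool. Each holds 6 mice and was read on 1 Agilent whole-genome array, so the values hold no spread between mice and no test of housing could be made. Levels are log2 processed spot intensities, with the array's 75th percentile subtracted, and differences are enriched minus standard.

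A ribosome is built from a small subunit, which reads the messenger RNA, and a large subunit, which joins amino acids and threads the new chain through an exit tunnel. Cells make the subunit proteins in matched amounts, and their messengers begin with a run of pyrimidines, the 5′ terminal oligopyrimidine (TOP) motif, through which mTOR signalling and the protein LARP1 control their translation. A few subunits have paralogues used mainly in muscle or testis, and free RPL5 and RPL11 bind the p53 inhibitor MDM2.

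The annotated starts of 6 members show the shared sequence. By gene mean, these members were higher (Rpl14, Rps18, Rps10), near the middle (Rpl28) and lower (Rps6, Rps27) in the enriched pool. The mean of Rps6 was lower only through its clone probe at -0.43, as its RefSeq transcript probe gave 0.16. They were chosen after their values were seen, among members whose run covers the annotated start. Each stretch holds 30 bases of the sense strand of GRCm38.p6 (RefSeq), with the pyrimidine run in capitals.
Rpl14: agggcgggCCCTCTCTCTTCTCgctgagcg
Rps18: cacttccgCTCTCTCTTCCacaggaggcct
Rps10: cgcgcacgCCCCTTCCTTTCCagcctccgc
Rpl28: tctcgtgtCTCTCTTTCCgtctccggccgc
Rps6: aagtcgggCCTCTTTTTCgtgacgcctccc
Rps27: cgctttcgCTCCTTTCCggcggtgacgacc
They lie at chr9:120571501-120571530 on the plus strand for Rpl14 and at chr17:33955646-33955675 on the minus strand for Rps18. The others are chr17:27635226-27635255 on the minus strand for Rps10, chr7:4792955-4792984 on the plus strand for Rpl28, chr4:86857347-86857376 on the minus strand for Rps6, and chr3:90213629-90213658 on the minus strand for Rps27. RefSeq promoter entries were matched for 56 of the 76 core subunit genes, with 65 start windows.

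A run of at least 8 pyrimidines that starts with C, between 30 bases before and 50 bases after the annotated start, was present in 70.8% of the core subunit windows and in 23.1% of all 32851 windows in the table. A run that covers the start base itself was present in 21.5% of the core subunit windows and in 2.78% of all windows. CTTTCC on the sense strand occurred in 40.0% against 14.1% of windows of 300 bases. CCGGAAG on either strand occurred in 36.9% against 8.86%. The 44 core genes with a run had a median difference of 0.28 between the pools, the 12 without one 0.19 and the 20 with no matched entry 0.19. The ranges of the 3 groups overlapped almost wholly, from -0.20 to 0.79 with a run and from -0.12 to 0.46 without.

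Most ribosomal protein genes stood slightly higher in the enriched pool. The median difference over the 82 members was 0.22 against 0.03 over 20254 measured genes, and 69 of 82 lay above 0, beside 52.0% of all genes. That direction held under the other scalings but not when the arrays were set equal on their E1A control probes, made for spiked-in RNA. Those probes themselves differed by -0.23 to 0.28 around a median of 0.21. With that scaling the member median was 0.01 and 43 members lay above 0. The median was 0.46 with quantile normalization and 0.47 in the authors' deposited log2 table. Relative to the median of all genes the members stood 0.19 higher, and 0.16 to 0.36 higher under the alternatives, the E1A scaling included. A difference of at least 1.2-fold upward was found for 36 members, beside 32.8% of all genes, and 1 member was at least 1.2-fold lower, beside 31.6%. Under the E1A scaling 10 members passed 1.2-fold upward and 8 downward. No member was at least 2-fold higher, beside 5.77% of all genes, and 1, Rpl3l, was at least 2-fold lower, beside 9.57%.

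**Figure D1:**
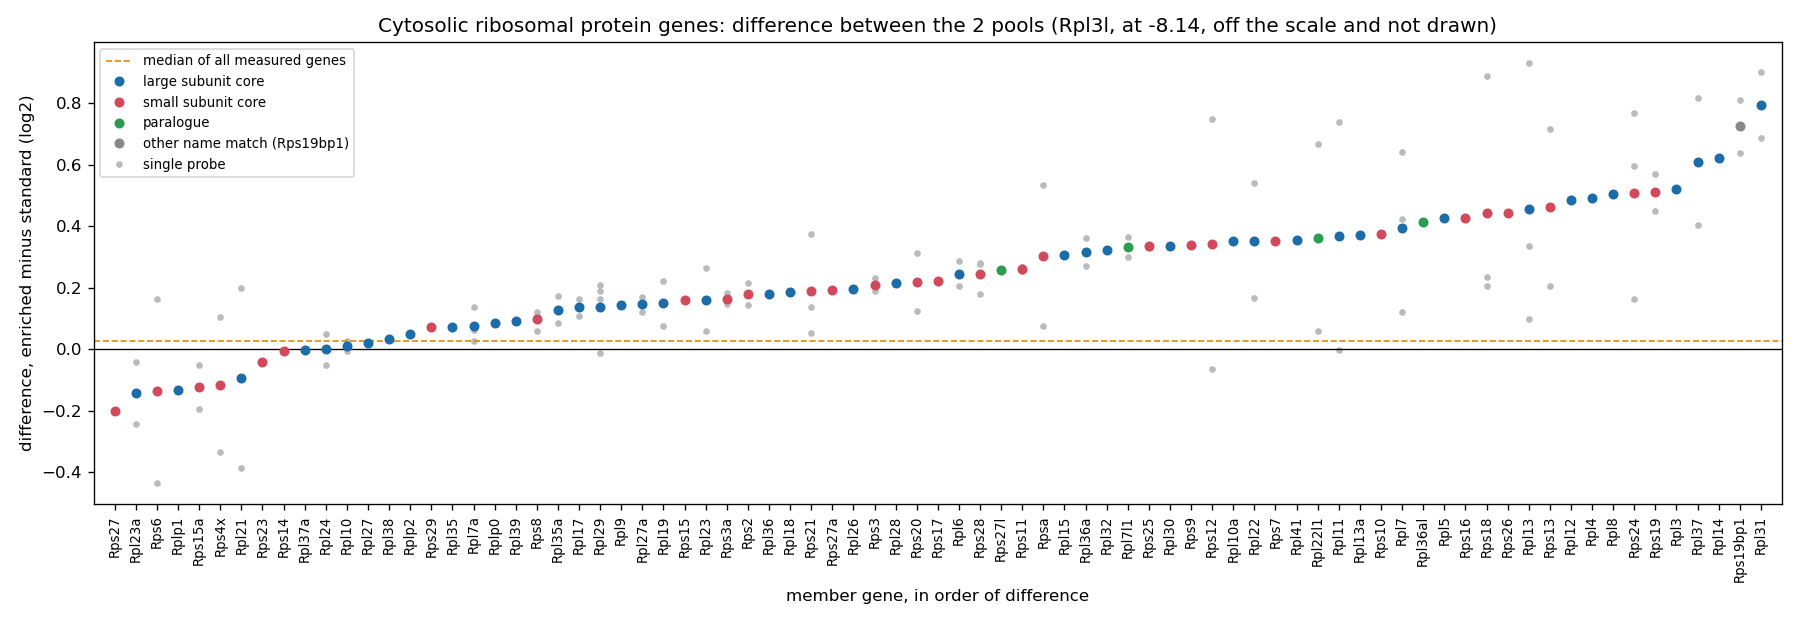
Difference between the enriched and the standard pool (log2, vertical axis) for 79 members in order of difference; large coloured points are gene means by class, grey points single probes, and the dashed line is the median of all measured genes at 0.03. The points run from -0.20 for Rps27 to 0.79 for Rpl31, 68 of those drawn lie above 0 (under the E1A scaling 43 of all 82 members do), and 3 members are not drawn, Rpl3l off the scale and the others not reported here.

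The members varied little among themselves. Without Rpl3l, the differences ran from -0.20 for Rps27 to 0.79 for Rpl31, and the robust SD over the 76 core subunits was 0.21 against 0.57 over all genes. Of 568 other genes at or above the lower quartile of the core subunits' level, the median difference was 0.0005 and 50.2% lay above 0. The scanner software's own error of a difference was 0.20 for a typical member probe. Of the core subunits, 39 differed by more than 1 such error and 15 by more than 2. The matching shares over all genes, whose differences spread more widely, were not counted. Among 41 members with several measured probes, 31 had all probes above 0, and the matching share over all genes was not counted. The median SD between probes of a member was 0.10 against 0.18 over all genes.

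The tumour RNA differed in makeup between the pools, and its part in the ribosomal protein differences was not tested. All 32 genes of a skeletal muscle list were past 2-fold on the low side (median -7.72, range -9.11 to -1.71). The genes of this list alone took 6.13% of the signal summed over probes in the standard pool and 0.128% in the enriched pool. Of 10 listed erythroid genes, 5 were measured on both arrays and these 5 were past 2-fold on the low side, with a range of -7.40 to -2.30. Carcinoma epithelium genes, keratins 8, 18 and 19, Epcam and Msln among them, were present on both arrays. All 16 were past 2-fold on the high side (median 1.86, range 1.42 to 2.48). The 20 cell cycle genes were all higher, by 0.23 to 1.19, with Kif23 at 1.19, Foxm1 at 1.16 and Ndc80 at 1.08, and lymphocyte genes had a median of -0.01. Fibroblast and matrix genes had a median of 0.85 with 10 of 15 above 0. In such pools fewer cells of a type and less RNA per cell cannot be told apart. The ribosomal protein members took 9.23% of that sum in the standard pool and 11.9% in the enriched pool.

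The large and the small subunit had similar medians. The 45 large subunit members had a median difference of 0.19, with 39 above 0 and 19 at least 1.2-fold higher, and their range was -0.14 to 0.79. The 31 small subunit members had a median of 0.22, with 25 above 0 and 13 at least 1.2-fold higher, and a range of -0.20 to 0.51. Of all genes 52.0% lay above 0 and 32.8% were at least 1.2-fold higher. The small subunit median was 0.03 above that of the large subunit, and 0.0046 to 0.07 above it under the alternatives. With the E1A scaling the large subunit median turned to -0.02 and the small subunit median was 0.01.

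In the large subunit, Rpl31, which sits at the mouth of the exit tunnel, had the highest difference. Its level was 0.59 in the standard pool and 1.39 in the enriched pool, a difference of 0.79, and its 2 probes gave 0.69 and 0.90. Rpl14, another protein of the large subunit, stood at 0.67 and 1.29. Rpl37, a zinc-binding subunit, stood at 0.86 and 1.47, and its 2 probes gave 0.40 and 0.82. The gene means of these 3 were the highest of the core subunits, that of Rpl37 through its probe near background.

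Rpl3, Rpl8 and Rpl4 came next within the large subunit. Rpl3, which reaches the peptidyl transferase centre, stood at 4.53 in the standard pool and 5.05 in the enriched pool. Rpl8, also next to that centre, stood at 6.40 and 6.90. Rpl4, which lines the exit tunnel, stood at 2.56 and 3.05, so all 3 were higher in the enriched pool by 0.49 to 0.52. In the exit tunnel list of 9 genes, 8 lay above 0, beside 52.0% of all genes. The median of the list was 0.15 (-0.06 with 3 above 0 under the E1A scaling). The exception was Rpl23a, the docking protein at the tunnel exit, at 6.39 and 6.25. Rpl35, its neighbour there, stood at 5.98 and 6.06.

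The acidic stalk, which recruits elongation factors, held members on both sides of 0, with a median of 0.04 over 4 genes (-0.17 to 0.41 over the scalings), in which Rplp0 was averaged over its 3 probes under the current symbol (5.90 and 5.93). Rpl12, at the base of the stalk, stood at 6.89 in the standard pool and 7.37 in the enriched pool, a difference of 0.48. Rplp1 stood at 8.23 and 8.10, a difference of -0.13. Rplp2, the partner of Rplp1, stood at 7.46 and 7.51. Rplp0, the anchor of the stalk, stood at 3.73 and 3.82 on the 1 probe that carries this name on the array and was spotted 10 times, with a mean difference of 0.09 ± 0.04 (SD over spots, n = 10 spots of 1 array pair) and a range of 0.04 to 0.13. That probe lies on chromosome 8 in the array's mm7 annotation, at chr8:101459316-101459375, while RefSeq places the Rplp0 gene on chromosome 5, so whether it reads Rplp0 itself is uncertain. Ribosomal protein genes have many near-identical pseudogenes, and which copies the other probes read was not tested.

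The gene means of Rpl5, Rpl7, Rpl13 and Rpl13a were also above the central 50% of members, that of Rpl13 through its clone probe. Rpl5, which carries the 5S RNA and binds MDM2, stood at 6.24 in the standard pool and 6.66 in the enriched pool. Rpl7 stood at 6.27 and 6.67, and its 3 probes gave 0.12, 0.42 and 0.64. Rpl13 stood at 3.63 and 4.08, with RefSeq transcript probes at 0.10 and 0.34, inside the central 50%, and a clone probe at 0.93. Rpl13a, known outside the ribosome as a translational silencer of inflammatory messengers, stood at 5.03 and 5.40. All 4 gene means were higher in the enriched pool, by 0.37 to 0.45.

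The large subunit members below the central 50% lay within 0.15 of 0. Rpl21 stood at -0.14 in the standard pool and -0.23 in the enriched pool, with probes at -0.39 and 0.20. Rpl37a, another zinc-binding subunit, stood at 7.86 and 7.85. Rpl24, which bridges the subunits, stood at 4.58 on both arrays. The gene means of these 3 differed by less than the software error. Rpl10, among the last proteins to join the large subunit, stood at 5.90 and 5.91, and Rpl27 at 6.58 and 6.60. Rpl38, needed for translation of Hox messengers in the mouse embryo, stood at 7.35 and 7.38, and Rpl7a at 5.72 and 5.80. Rpl34, which the array lists under a clone name and the rule therefore missed, stood at 5.89 and 5.91. The members inside the central 50%, of both subunits, lay between 0.09 and 0.37.

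In the small subunit, the highest gene means of the difference belonged to Rps19 and Rps24, that of Rps24 through its clone probes. Both genes are mutated in Diamond-Blackfan anaemia, an inherited failure of red cell production. Rps19 stood at 4.88 in the standard pool and 5.39 in the enriched pool, with probes at 0.45 and 0.57. Rps24 stood at 1.53 and 2.04. Its RefSeq transcript probe gave 0.16, inside the central 50% of members, and its clone probes 0.60 and 0.77. Rps26 stood at 5.69 and 6.13, and Rps10 at 5.15 and 5.52. The 11 subunits listed for this anaemia were all above 0, with values from 0.13 to 0.51 around a median of 0.37, and 8 passed 1.2-fold. Over all core subunits 84.2% lay above 0 and 42.1% passed 1.2-fold upward, beside 52.0% and 32.8% of all genes. The list was chosen with earlier results of these data known and need not hold every subunit linked to the anaemia. Rpl11 lay above 0 and passed 1.2-fold through its clone probe at 0.74, since its RefSeq transcript probe gave -0.0037. Rps24 likewise passed 1.2-fold only through its clone probes. Under the E1A scaling the median of the 11 subunits was 0.16 and 9 lay above 0.

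The gene means of Rps13, Rps18 and Rps16 were also above the central 50%, those of Rps13 and Rps18 through their clone probes. The RefSeq transcript probes gave 0.21 in Rps13 and 0.21 and 0.23 in Rps18, inside the central 50%. Rps13, an early-binding protein of the small subunit, stood at 3.11 in the standard pool and 3.57 in the enriched pool. Rps18, a protein of the head, stood at 4.22 and 4.66. Rps16, whose tail touches the transfer RNA, stood at 7.23 and 7.65. The gene means of the 3 members were higher in the enriched pool by 0.43 to 0.46.

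The lowest small subunit member was Rps27, a zinc-binding protein, at 7.26 in the standard pool and 7.05 in the enriched pool. Rps6, the substrate of S6 kinase downstream of mTOR, stood at 1.56 and 1.42, but its RefSeq transcript probe gave 0.16 and its clone probe -0.43. Rps4x, encoded on the X chromosome, stood at 1.83 and 1.72 with probes at -0.34 and 0.10. In neither gene did the probes share a direction. Rps15a stood at 0.70 and 0.57, with both of its probes below 0. Rps23, in the decoding centre, stood at 8.10 and 8.06. Rps14, whose human counterpart is lost in the 5q- syndrome, stood at 6.63 and 6.63, and Rps29 at 7.71 and 7.79. These last 3 differed by less than the software error.

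Of the 7 subunits listed for the 5S particle and MDM2 binding, 6 lay above 0, beside 52.0% of all genes. The median of the 7 was 0.20 (-0.02 with 3 above 0 under the E1A scaling), and the exception was Rps27. Rpl11, which binds MDM2 with Rpl5, stood at 3.02 in the standard pool and 3.39 in the enriched pool, but its RefSeq transcript probe gave -0.0037 and its clone probe 0.74. Mdm2 itself differed by 0.06. The 19 listed p53 targets had a median of 0.06 with 12 above 0 (-0.15 to 0.14 over the scalings). Pmaip1, which encodes the death protein NOXA, was higher by 1.73 and Tnfrsf10b, a death receptor, by 1.29. Ccng1, which encodes cyclin G1, differed by -1.49 and Gadd45a, a stress gene, by -1.20. The targets thus went both ways by over 2-fold.

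Probes lay more than 0.5 apart in 10 members. In 7 of these the highest probe was designed on a cDNA clone or expressed sequence tag, in 1 the lowest was, and 2 had RefSeq transcript probes only. Beside Rps6, Rpl21, Rps24, Rpl11, Rpl7 and Rpl13, they were Rps12, Rps13, Rps18 and Rpl22l1. Rps12 stood at 2.95 in the standard pool and 3.30 in the enriched pool, with its RefSeq transcript probe at -0.06 and its clone probe at 0.75. Rps18 had probes at 0.21, 0.23 and 0.89. Rps13 had 0.21 and 0.72, and Rpl13 0.10, 0.34 and 0.93. In these 4 the clone probe gave the higher difference, and in Rps6 the lower one.

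The paralogues held the member that differed most, Rpl3l, the heart and skeletal muscle counterpart of Rpl3. Its level was 3.46 in the standard pool and -4.68 in the enriched pool, well above background on both arrays, a difference of -8.14 or 282-fold. Its 1 probe lies between positions 22917799 and 22918067 of chromosome 17 (mm7), on a RefSeq transcript of the gene. Rpl3, which Rpl3l replaces in muscle fibres, differed by 0.52, so that the paralogue stood at -8.66 relative to it, or -7.28 with normexp background correction. The elongation factors gave a like contrast. Eef1a2, the muscle and nerve form, was well above background on the standard array only, at least 395-fold brighter there, while Eef1a1, the general form, differed by 0.21. The muscle genes Ckmt2, Mybpc1 and Ckm differed by -9.11, -8.67 and -8.56. The part of muscle RNA in the Rpl3l difference was not tested beyond these values.

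The RefSeq sequence before the outermost annotated start of Rpl3l, 250 bases at chr17:24727576-24727825 on the plus strand of GRCm38.p6, is shown because this member differed by over 2-fold, with CAGCTG in capitals.
Rpl3l: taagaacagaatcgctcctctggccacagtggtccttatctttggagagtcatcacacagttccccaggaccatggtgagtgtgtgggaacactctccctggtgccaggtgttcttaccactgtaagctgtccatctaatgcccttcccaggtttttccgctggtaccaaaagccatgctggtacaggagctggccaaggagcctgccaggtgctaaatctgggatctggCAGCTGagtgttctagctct
CAGCTG, the form of E-box that muscle regulatory factors favour and the same on both strands, begins 20 bases before the start. The 250 bases before a further annotated start of Rpl3l, at chr17:24732435-24732684, held no CAGCTG. The motif was present in 16.3% of all 32851 windows of 300 bases and in 3.08% of the 65 core subunit windows. The other motifs searched were CATTCC and CCGGAAG on either strand and TATAAA and CTTTCC on the sense strand, and none of these letters were found in either stretch. A match of these letters describes the sequence and no binding.

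**Figure D2:**
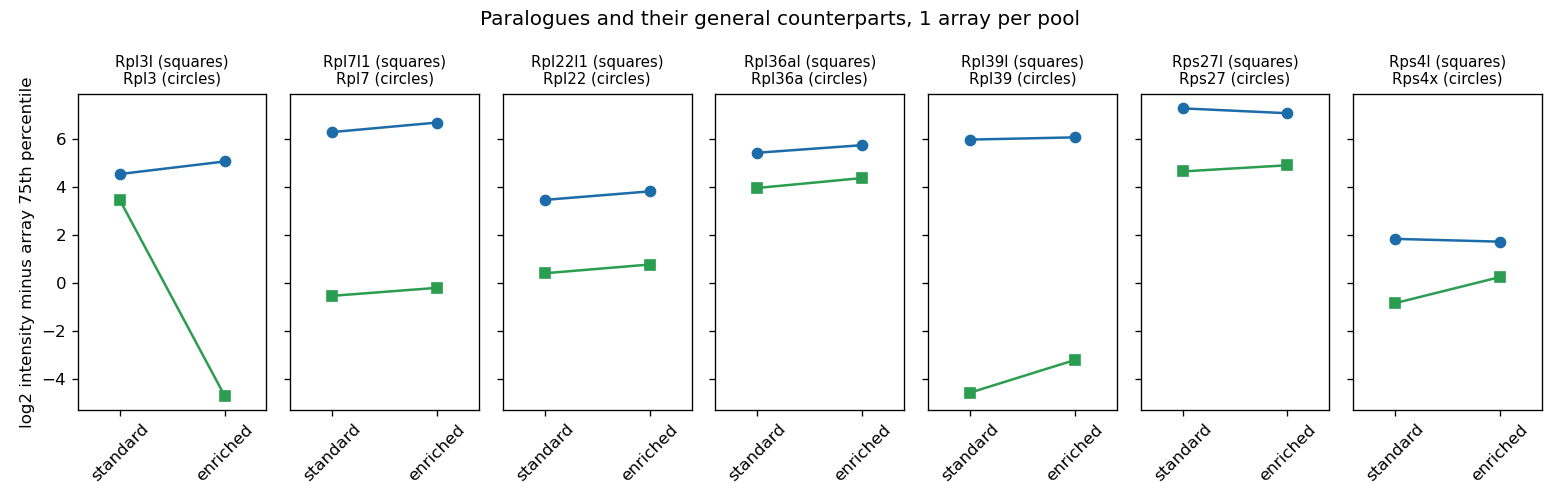
Levels (log2 intensity minus the array's 75th percentile) of 7 paralogues (squares) and their general counterparts (circles) in the standard and enriched pools, 1 array each. Rpl3l goes from 3.46 to -4.68 while Rpl3 goes from 4.53 to 5.05. The lines of Rpl7l1, Rpl22l1 and Rpl36al run nearly parallel to those of their counterparts, that of Rpl22l1 as a mean of probes at 0.06 and 0.67. Levels of different probes in a panel are not comparable.

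The genes beside Rpl3l on the chromosome did not share its size of difference. Ndufb10, a subunit of respiratory complex I next to it, differed by -1.56, and Msrb1, a methionine sulfoxide reductase on its other side, by -0.86. Rps2, a ribosomal protein gene 2 places away, differed by 0.18.

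The gene means of Rpl7l1, Rpl22l1 and Rpl36al differed by amounts close to those of their counterparts, and that of Rps27l did not. Rpl7l1, a nucleolar protein of large subunit assembly, stood at -0.53 in the standard pool and -0.20 in the enriched pool, a difference of 0.33 against 0.40 for Rpl7. Rpl22l1 stood at 0.40 and 0.77, a difference of 0.36 against 0.35 for Rpl22. That mean joins its RefSeq transcript probe at 0.06 and a dim clone probe at 0.67, and neither alone was close to Rpl22. Rpl36al stood at 3.95 and 4.36, a difference of 0.41 against 0.31 for Rpl36a. Rps27l, a p53-responsive copy, stood at 4.64 and 4.89, a difference of 0.26 against -0.20 for Rps27, which set this pair 0.46 apart.

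A pair of paralogues carries clone names on the array and was found only through current symbols, outside the rule. Rpl39l, the copy best known from testis, stood at -4.56 in the standard pool and -3.20 in the enriched pool, a difference of 1.36 against 0.09 for Rpl39. It was read by 1 dim probe, where the lowest level well above background on the standard array was -5.68. Rps4l stood at -0.84 and 0.25, a difference of 1.08 against -0.12 for Rps4x. Of 16 germ cell markers, 8 were measured on both arrays, with a median difference of -0.87. Of these 7 lay below 0, down to -3.65, and Tex101 stood at 4.41, and the defining markers Ddx4, Dazl and Sycp1 were not well above background on either array. Rps19bp1, the member that is no subunit, stood at 0.83 in the standard pool and 1.56 in the enriched pool, a difference of 0.72 with both of its probes above 0.6.

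Most genes that build ribosomes were also higher in the enriched pool. Of 81 genes for ribosome biogenesis and RNA polymerase I, 72 lay above 0 with a median of 0.38. Of the 81, 58 passed 1.2-fold upward and 2 downward. The matching shares of all genes were 52.0% above 0, 32.8% upward and 31.6% downward. Under the E1A scaling 63 of the 81 lay above 0 with a median of 0.16. The median of the biogenesis list was above that of the members with the 75th percentile scaling and below it with quantile normalization, at 0.39 against 0.46. Ppan, an assembly factor of the large subunit, was higher by 1.12, Rrs1, an assembly factor, by 1.05 and Nop58, a core protein of methylation-guide particles, by 1.03. Polr1c, a subunit shared by RNA polymerases I and III, was 2.14-fold higher. Tsr2, a chaperone of Rps26, was the lowest at -0.78.

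**Figure D3:**
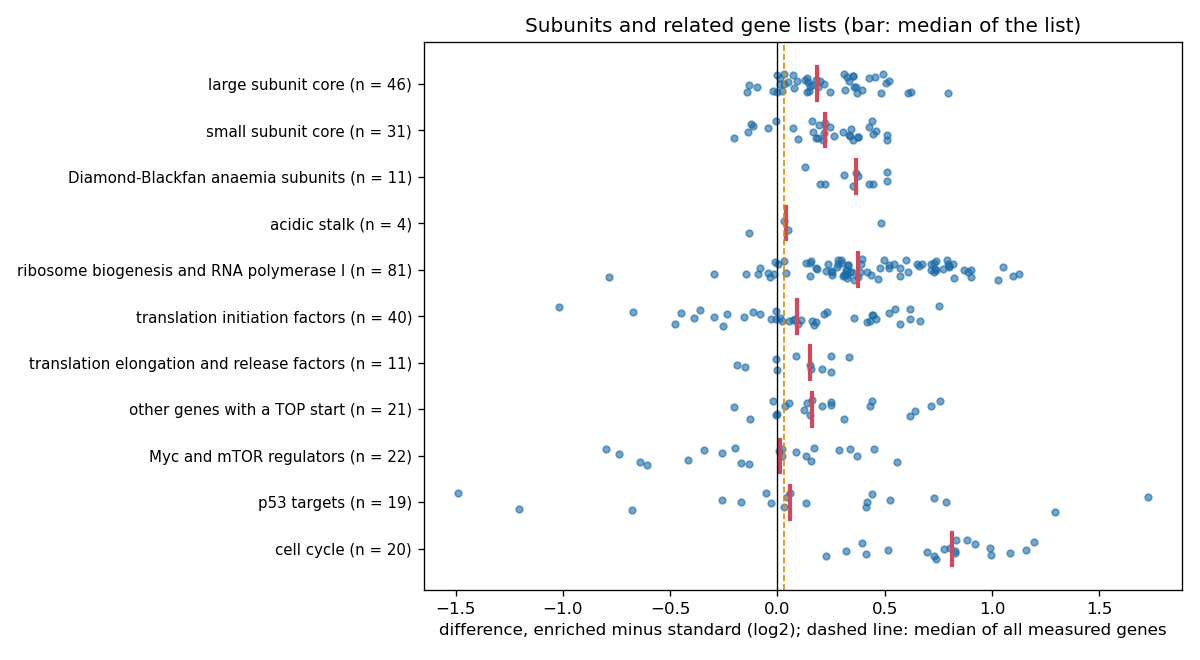
Difference between the pools (log2, horizontal axis) of each measured gene in 11 lists, with a bar at the median of the list and a dashed line at the median of all measured genes (0.03). The biogenesis list centres at 0.38 and the cell cycle list at 0.82, beside the large (0.18, with Rpl34 added by its current symbol) and small subunit (0.22) lists; under the E1A scaling the large subunit list centres at -0.03.

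The translation factors spread to both sides of 0. Of 40 initiation factors, 25 lay above 0, beside 52.0% of all genes. The median of the 40 was 0.09 (-0.12 with 15 above 0 under the E1A scaling). Pabpc4, a poly(A)-binding protein, differed by -1.02, Eif3d by 0.75 and Eif3j1 by -0.67, the last 2 being parts of the scaffold complex eIF3. The 11 elongation and release factors measured on both arrays had a median of 0.15 with 8 above 0 (-0.06 and 3 under the E1A scaling), led by Abce1, which splits terminated ribosomes, at 0.33. Eef1b2 and Eef1d, exchange factors of Eef1a1, each differed by 0.25.

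Other genes with a TOP start had a median near that of the subunits. Of 21, 17 lay above 0, beside 52.0% of all genes. The median of the 21 was 0.16 (-0.05 with 9 above 0 under the E1A scaling). Gas5, a noncoding host gene of nucleolar guide RNAs, differed by 0.76, Npm1, a nucleolar chaperone, by 0.72 and Hnrnpa1, a splicing factor, by 0.64. Fau and Rack1, subunit genes under other names, differed by 0.12 and 0.14. Of 22 regulators of the Myc and mTOR pathways, 12 lay above 0 with a median of 0.01 (-0.20 to 0.07 over the scalings). Eif4ebp1 and Eif4ebp2, which hold back the cap-binding factor eIF4E, differed by -0.80 and -0.74. The SD between the 2 probes of Eif4ebp1 was 0.86, and Eif4ebp2 had 1 probe. Mycn differed by -0.64 at a level near background. Outside the 3 largest differences of this list, Akt1s1 differed by -0.61 and Myc by 0.56, with an SD of 0.50 between the 3 probes of Myc.

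The proteins of the mitochondrial ribosome went the other way. Of 75 genes measured, 70 were at or below 0, with a median of -0.37 (-0.58 to -0.29 under the alternatives), 42 were at least 1.2-fold lower and 3 at least 1.2-fold higher. Of all genes 52.0% lay above 0, 31.6% were at least 1.2-fold lower and 32.8% at least 1.2-fold higher.

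**Figure D4:**
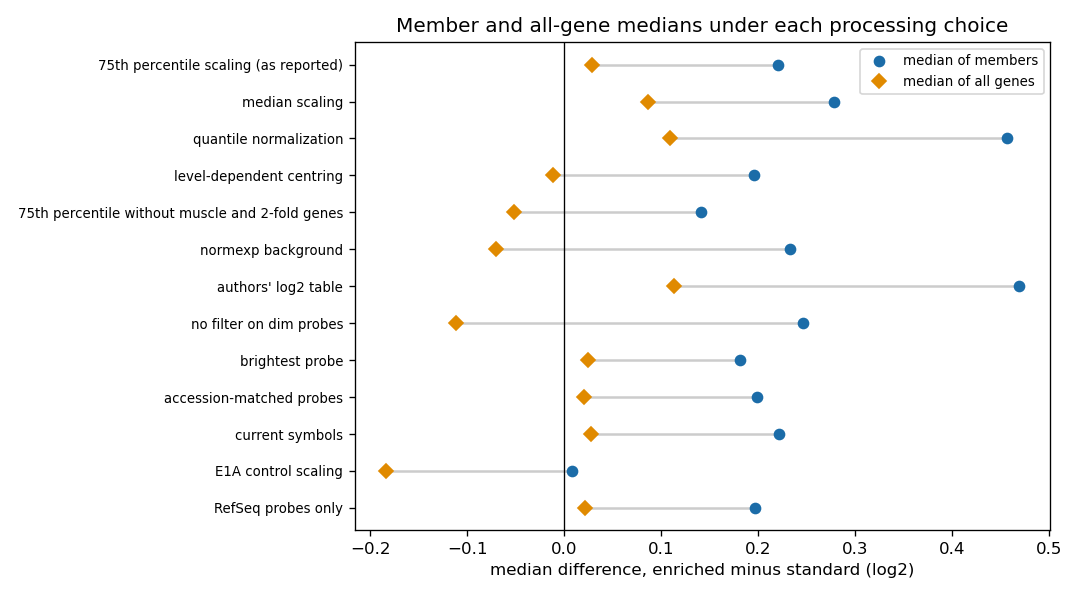
Median difference between the pools (log2, horizontal axis) of the members (circles) and of all measured genes (diamonds) under each processing choice. The circles lie between 0.01 (E1A control scaling) and 0.47 (the authors' log2 table) and to the right of the diamonds in each case.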

How the data were processed

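The authors deposited 1 scanner table per pool. Its values are linear intensity, and a background trend within each array had already been subtracted, per the file headers; the submitters' processing notes name it as Agilent Feature Extraction, version 10.7.1.1. A deposited table of log2 values for 30319 probes, which tracks the scanner values with r = 1.00 for both arrays, served as an alternative, and its scaling and centring are not given in the sources used here (column medians 8.54 and 8.56). Here the 75th percentile (753 in the standard, 984 in the enriched environment pool) was subtracted after log2. The 1639 control spots and 66 and 70 outlier spots were left out. Of 43379 other spots, 77.2% and 77.4% were well above background and 0 were saturated. Spots of a probe and probes of a gene were averaged where they were well above background on both arrays (30298 of 41161 probes). Of 137 member probes, 134 were so measured. With 1 array per group there is no test, and array number limits the precision.

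Members, gene lists and the naming rule were chosen with earlier results of these data known. The rule names all paralogues, core subunits outside the central 50% of differences and members with probes over 0.5 apart, and the 3 largest differences and any 2-fold gene of each pathway list; marker lists are given by their ranges. Some genes picked this way are not reported here. Symbols, neighbours and promoter sequences came from RefSeq tables of GRCm38.p6. The alternatives were the scaling, background correction, probe filter and probe choice. The steps were tested on simulated data. Software was Python 3.11.15 with pandas 2.3.3, and R 4.3.3 with limma 3.58.1 for the normexp (offset 50) and cyclic loess alternatives.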

Additional observations from a re-analysis of the deposited data

How the results depend on the processing

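The medians moved with the scaling of the 2 arrays. Quantile normalization gave a member median of 0.46, a large subunit median of 0.39 and a small subunit median of 0.46, and the authors' log2 table gave 0.47, 0.46 and 0.47. Scaling on the E1A control probes, which was chosen after seeing the data, gave 0.0083, -0.024 and 0.0093 with 43 members above 0, and the median of all genes was then -0.18. The 8 E1A probes have 32 spots each and a median difference of 0.21 after the 75th percentile scaling, with a range of -0.23 to 0.28. The brightest, at 8.99 in the standard pool, gave -0.23. Those at 7.61 and 6.72 gave 0.04 and 0.24. The difference of Rpl3l relative to Rpl3 was -7.28 with normexp background correction and -8.81 in the authors' table. Which scaling is right was not tested. Restricting members to RefSeq transcript probes, also chosen after seeing the data, gave a median of 0.20. Of 981 recomputed differences of single members, 702 stayed within 0.10 of the reported value. No paired analysis was possible because each group has 1 array. Without replicate arrays a member's difference near the software error of 0.20 cannot be told from 0.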

Other observations

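The probes within a member gave different answers by their kind. In 16 member genes that had both kinds, the probe on a clone or expressed sequence tag was higher than the RefSeq transcript probe in 11, or 68.8%, beside 50.9% of 2666 other genes. The median excess was 0.15 in members and 0.01 in the other genes. Clone probes of members had a median difference of 0.44 over 18 probes, RefSeq probes 0.19 over 115. Clone probes of members gave less signal than the RefSeq probe of the same gene by a median of 7.64 on the log2 scale, against 1.34 in the other genes, although the brightness of different probes does not measure abundance. Rps24 is an example, with clone probes at 0.60 and 0.77 beside the transcript probe at 0.16.

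Across 133 member probes, without that of Rpl3l, the difference went with the level at Pearson r = -0.35 and Spearman rho = -0.32. The probes share both arrays and their scaling, so this is a description across probes.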
